A study of Homo sapiens with 12 samples.

Results

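The genes described are 10 of the 62703 Ensembl identifiers listed for HK2 cells: the matrix metalloproteinases (MMPs) MMP2, MMP7, MMP9, MMP14 and MMP15, the sheddases ADAM10 and ADAM17, and the tissue inhibitors of metalloproteinases (TIMPs) TIMP1, TIMP2 and TIMP3. They were chosen by name and matched by symbol, and each symbol had 1 identifier. HK2 is an immortalised line from the human proximal tubule, and its RNA was sequenced in 12 libraries, 3 per group. NG cells received a control vector at 5.5 mM glucose, HG cells 50 mM glucose, si-FGF9 cells a lipofected small interfering RNA against FGF9 at 5.5 mM, and HG+OE-FGF9 cells a lentiviral vector that overexpresses FGF9 at 50 mM. All groups were grown in DMEM/F-12 with fetal bovine serum. The labels and methods describe no non-targeting siRNA and do not say that HG cells carried a control vector. The methods name the same lipofection reagent for the vectors and the siRNA. In si-FGF9 compared with NG, any siRNA in place of a vector therefore cannot be told apart from the siRNA against FGF9. In HG+OE-FGF9 compared with HG, transfection itself cannot be told apart from the FGF9 vector if HG carried none. In HG compared with NG, the control vector of NG cannot be told apart from glucose. The study's text gives the NG medium in a different way in its results, with mannitol, and the vector as an adenovirus. If NG had no mannitol, osmolarity cannot be told apart from glucose either. Nothing says that the 3 libraries of a group came from separate cultures, so the p-values measure the spread between these libraries, which may be technical.

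MMPs are zinc enzymes made as inactive precursors that cut collagen, laminin and other matrix proteins, and in the kidney they are known for turnover of the tubular basement membrane and for fibrosis after injury. Some are secreted and others, the membrane-type MMPs, stay on the cell surface, where MMP14 activates the MMP2 precursor in a complex with TIMP2. ADAM10 and ADAM17 are related membrane enzymes that shed the outer parts of growth factors, receptors and adhesion proteins. TIMPs bind the active site of these enzymes: TIMP1 blocks most secreted MMPs and ADAM10, TIMP2 also blocks the membrane types, and TIMP3 is the main natural inhibitor of ADAM17.

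The promoters of 3 of the genes are shown because MMP7 and MMP14 fell in HG and si-FGF9, whereas TIMP1 rose in si-FGF9. ADAM10 and ADAM17 fell in both as well and are not shown, because the region searched held no bases before their annotated gene starts. The RefSeq promoter table for GRCh38.p14 held 7 of the 10 genes, and MMP2, MMP9 and TIMP2 were not among them. The bases before the annotated gene start are printed 5′ to 3′ on the gene's strand, and capitals mark motif matches, which were searched on both strands. The AP-1 motif, bound by the FOS and JUN family, was written as TGANTCA. The TATA box, which sets the start of transcription in many inducible genes, was searched as TATAAA. The GC box, the element bound by the Sp1 family and common in promoters of broadly used genes, was searched as GGGCGG. The fourth motif, PEA3, bound by the ETS family, was written as AGGAAG and is not capitalised in the sequences.
MMP7 (chr11:102530754-102530997, minus strand): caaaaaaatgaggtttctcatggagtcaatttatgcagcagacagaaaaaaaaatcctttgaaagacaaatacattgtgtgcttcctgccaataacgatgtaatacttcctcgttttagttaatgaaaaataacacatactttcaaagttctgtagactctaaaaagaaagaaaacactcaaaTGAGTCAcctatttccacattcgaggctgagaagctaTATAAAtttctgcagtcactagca
MMP14 (chr14:22836335-22836556, plus strand): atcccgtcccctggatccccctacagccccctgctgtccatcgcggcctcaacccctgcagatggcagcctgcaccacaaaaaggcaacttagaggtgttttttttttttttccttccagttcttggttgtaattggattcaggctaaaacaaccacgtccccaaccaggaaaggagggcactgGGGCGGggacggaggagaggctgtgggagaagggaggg
TIMP1 (chrX:47582186-47582312, plus strand): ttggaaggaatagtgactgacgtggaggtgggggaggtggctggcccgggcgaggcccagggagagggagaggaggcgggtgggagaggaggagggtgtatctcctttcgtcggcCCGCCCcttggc
The MMP7 promoter held TGAGTCA, the AP-1 form, at positions -67 to -61 and TATAAA at -30 to -25, counted back from the RefSeq start. In the 250 bases before the start, AP-1 matches occurred in 6.59% of 34943 RefSeq promoters and TATA box matches in 10.8%. None of the other 6 promoters of these genes had either match. All 6 had a GC box, which 42.5% of all promoters held, against 0 in that of MMP7. PEA3 matches, which 28.7% of all promoters held, numbered 2 in MMP7, 2 in ADAM10, 1 in ADAM17 and 1 in TIMP1. The 250 bases of MMP7 had a GC content of 33.6%, lower than in all but 3.96% of promoters (median 58.0%), whereas those of the other 6 genes ran from 56.8% in MMP14 to 75.6% in ADAM17. A match is a description of these letters, and no binding was measured. In GENCODE release 29 on GRCh38 the genes themselves lie at chr11:102520508-102530753 (MMP7, minus strand), chr14:22836557-22849027 (MMP14, plus strand), chrX:47582313-47586789 (TIMP1, plus strand), chr15:58588807-58749978 (ADAM10, minus strand) and chr2:9488486-9556732 (ADAM17, minus strand). The build behind the deposited values may differ.

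The deposited values were read as TPM (transcripts per 1000000), since they sum to the same total in each library. No label names the unit, and TPM keeps no record of depth. The number of genes at 1 TPM or more ran from 11549 to 13949. FGF9 was listed at 0 in all 9 NG, HG and si-FGF9 libraries, so these values could not check the si-FGF9 label on its target. In HG+OE-FGF9 it was at 3.34 to 4.03 TPM. The study also measured FGF9 by RT-qPCR in HK2 cells of the same groups. Its means were lower in HG and si-FGF9 than in NG, and higher in HG+OE-FGF9. The difference of si-FGF9 did not reach the study's significance level. Of 8 markers of tubular epithelial lines 7 were at a mean of 1 TPM or more in NG, among them KRT8, KRT18, KRT19 and PAX8, while CDH1 stayed at or below 0.28 TPM. Of 5 markers of differentiated proximal tubule, LRP2 and CUBN did not exceed 0.02 TPM in any library. AQP1 and SLC5A2 reached means of 1.57 and 2.26 TPM in HG+OE-FGF9. The 5 summed to 1.61 to 2.31 TPM in NG and 2.12 to 4.96 in HG+OE-FGF9. HG+OE-FGF9 libraries 1 and 2 differed least of all pairs (scaled median absolute deviation 0.07 on the log2 scale, against up to 0.74 between HG libraries 2 and 3), followed by NG 2 and 3 (0.09), and were kept as separate libraries because sampling noise cannot be judged without depth. Results that change when such pairs are averaged are named below.

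The test was limma on log2(TPM + 1) with the 12 libraries in 1 fit, over the 14639 genes that reached 1 TPM in no fewer than 3 libraries. Fold changes on this scale understate the change of genes with low TPM. A gene rose or fell where its log2 fold change was at least 1 in size with an unadjusted p under 0.01, and Benjamini-Hochberg adjusted p over all genes tested stand beside it. 9 of the 10 genes were tested. TIMP3 was not, since its TPM lay between 0 and 0.04 in the 12 libraries.

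In HG, 4 of the 9 genes fell and 0 rose compared with NG. MMP7, MMP14, ADAM10 and ADAM17 fell. In si-FGF9 the same 4 genes fell and TIMP1 rose. The HG and si-FGF9 comparisons share the NG libraries. Compared with HG, MMP7 and ADAM10 fell in HG+OE-FGF9, and the call of ADAM10 was lost under many alternatives. Compared with NG, 6 of the 9 fell in HG+OE-FGF9, MMP2 and MMP15 beside those 4. Under median-of-ratios scaling, described next, MMP2, MMP14 (-0.77) and MMP15 lost this last call and TIMP1 rose (1.65), so that 3 genes fell and 1 rose. Of all 14639 genes tested, 2571 fell and 2474 rose in HG+OE-FGF9 compared with NG under this scaling. The same scaling left 3 genes that fell in HG and in si-FGF9, namely MMP7, ADAM10 and ADAM17. TIMP1 rose in both, and MMP9 also rose in si-FGF9.

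Lower values were common across all genes. Of all genes tested, 22.7% fell in HG compared with NG, 42.2% in si-FGF9 compared with NG, 2.67% in HG+OE-FGF9 compared with HG and 32.7% in HG+OE-FGF9 compared with NG. The shares that rose were 1.65%, 5.36%, 2.94% and 7.01%. For the whole set of genes tested the median log2 fold change stood at -0.39 for HG against NG, -0.79 for si-FGF9 against NG and -0.13 for HG+OE-FGF9 against HG. Median-of-ratios scaling moved these medians to near 0, and the calls in HG compared with NG went from 3328 lower and 242 higher to 1240 lower and 1063 higher. For si-FGF9 compared with NG they went from 6181 lower and 785 higher to 2613 lower and 2774 higher. 

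**Figure D1:**
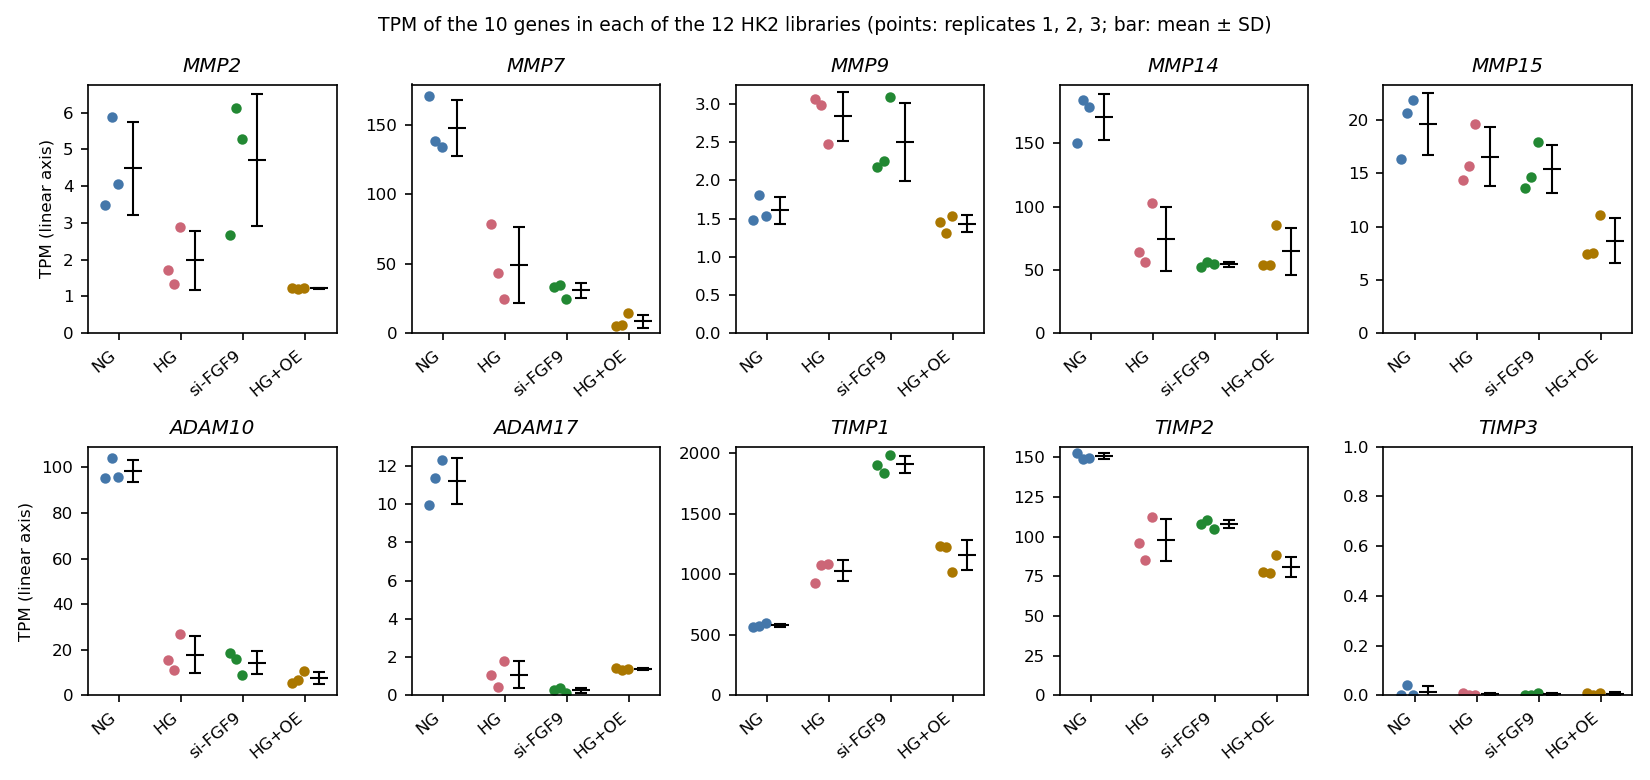
Each panel plots the TPM of 1 gene on a linear axis from 0 for the 3 libraries of each group (HG+OE stands for HG+OE-FGF9), with the mean and SD as a bar. ADAM10 and ADAM17 in NG lie far above the other 9 libraries, TIMP1 is lowest in NG and highest in si-FGF9, and TIMP3 stays at or below 0.04 TPM.

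MMP7, or matrilysin, is a small secreted protease that cuts laminin, E-cadherin and Fas ligand and is known as a marker of tubular injury. Its TPM was 170.84, 138.19 and 134.47 in NG, 33.07, 34.57 and 24.67 in si-FGF9, 78.63, 43.50 and 24.44 in HG, and 5.06, 5.95 and 14.12 in HG+OE-FGF9. NG lay above every other library, and HG+OE-FGF9 below every other library, while HG and si-FGF9 overlapped. MMP7 fell in HG (log2 fold change -1.72 ± 0.39, SE, limma, adjusted p = 0.00438) and in si-FGF9 (-2.23 ± 0.39, adjusted p = 0.000305) compared with NG. It fell again in HG+OE-FGF9 compared with HG (-2.38 ± 0.39, adjusted p = 0.00405), which left its mean TPM 17.6-fold lower than in NG. Relative to the median of all genes in that comparison, the last value was -2.25.

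MMP14, the membrane-type enzyme MT1-MMP, cuts fibrillar collagen at the cell surface and activates the MMP2 precursor. It had 150.02, 184.22 and 178.69 TPM in NG, 52.01, 56.10 and 54.91 in si-FGF9, 63.74, 56.24 and 103.07 in HG, and 53.86, 53.89 and 85.70 in HG+OE-FGF9. All 9 libraries outside NG lay below it, and HG and HG+OE-FGF9 overlapped. MMP14 fell in HG (-1.23 ± 0.23, adjusted p = 0.0018) and in si-FGF9 (-1.63 ± 0.23, adjusted p = 6.20e-05). Under median-of-ratios scaling the values were -0.72 and -0.61 and no longer passed. Between HG+OE-FGF9 and HG the log2 difference was -0.19, with a 95% interval of -0.69 to 0.31.

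MMP15, or MT2-MMP, is a second membrane-type enzyme. Its TPM was 16.36, 20.68 and 21.87 in NG, 13.58, 14.62 and 17.91 in si-FGF9, 14.37, 15.64 and 19.67 in HG, and 7.40, 7.52 and 11.09 in HG+OE-FGF9. Only HG+OE-FGF9 stood apart from the other groups. It was lower than HG by an amount just under the fold threshold (-0.87 ± 0.20, adjusted p = 0.0196) and fell compared with NG (-1.10 ± 0.20, adjusted p = 0.000494). With the closest library pairs averaged, this last value was -0.96 and missed the threshold, and median-of-ratios scaling gave -0.49. With the GC correction described below it was -1.53 (limma, adjusted p = 8.525e-05). HG and si-FGF9 then stood at -0.61 (adjusted p = 0.0305) and -0.70 (adjusted p = 0.0078) from NG. Median-of-ratios scaling gave 0.25 (adjusted p = 0.285) and 0.64 (adjusted p = 0.00907) there, so the sign depended on the processing.

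The gelatinases MMP2 and MMP9 cut denatured collagen and the type IV collagen of basement membranes. Both were near the lower end of what was tested. MMP2 had 3.49, 5.89 and 4.06 TPM in NG, 2.68, 6.13 and 5.29 in si-FGF9, 1.72, 1.34 and 2.88 in HG, and 1.24, 1.20 and 1.22 in HG+OE-FGF9. NG and si-FGF9 overlapped, whereas both 50 mM groups lay below NG. The log2 fold change of HG compared with NG was -0.89 ± 0.28 (adjusted p = 0.0191), under the fold threshold. HG+OE-FGF9 fell compared with NG (-1.28 ± 0.28, adjusted p = 0.00155), which median-of-ratios scaling (-0.79) did not retain as a call. MMP9 had 1.48, 1.81 and 1.53 TPM in NG, 2.17, 2.25 and 3.09 in si-FGF9, 3.06, 2.99 and 2.47 in HG, and 1.45, 1.31 and 1.53 in HG+OE-FGF9. HG and si-FGF9 lay wholly above NG and above HG+OE-FGF9. Its log2 differences did not reach the fold threshold: 0.56 ± 0.17 in HG compared with NG (adjusted p = 0.0156), 0.42 ± 0.17 in si-FGF9 compared with NG (adjusted p = 0.0393) and, for HG+OE-FGF9 compared with HG, -0.66 ± 0.17 (adjusted p = 0.0292). In si-FGF9 compared with NG, MMP9 passed the fold threshold with median-of-ratios scaling (1.09) and quantile normalization (1.22). MMP2 passed it there with quantile normalization (1.04). Once the GC trend described below was taken out, MMP9 stood at 0.29 in si-FGF9 (limma, adjusted p = 0.0651). In HG it then stood at 0.32 (adjusted p = 0.0740), both compared with NG. For HG+OE-FGF9 compared with HG it was -0.71 (adjusted p = 0.00486). MMP2 in si-FGF9 was then 0.29 (adjusted p = 0.386). None of these GC-corrected values reached the fold threshold. Without that correction, 8 of the 9 genes differed between HG and NG at an adjusted p under 0.05 and any fold. Of them 2 were higher and 6 lower, where 8.53% of all genes were higher and 40.5% lower. An antisense RNA overlaps MMP9 and 3 noncoding genes overlap MMP2, and reads of the 2 strands cannot be told apart where counting by strand is not stated.

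ADAM10 sheds Notch receptors, the amyloid precursor protein and N-cadherin. Its TPM was 95.22, 104.05 and 95.75 in NG, 18.51, 15.82 and 8.69 in si-FGF9, 15.61, 11.02 and 26.97 in HG, and 5.21, 6.88 and 10.68 in HG+OE-FGF9. NG was apart from all other libraries, and HG+OE-FGF9 lay just below HG, with 10.68 against 11.02 TPM where they came closest. ADAM10 fell in HG (-2.48 ± 0.34, adjusted p = 0.000639) and in si-FGF9 (-2.75 ± 0.34, adjusted p = 2.51e-05), a 5.50-fold and a 6.86-fold lower mean TPM. For HG+OE-FGF9 compared with HG it passed on the unadjusted limma p but had a Benjamini-Hochberg adjusted p of 0.0608 (-1.10 ± 0.34). That value was -0.97 with HG+OE-FGF9 libraries 1 and 2 averaged, and -0.77 without HG replicate 3, and neither passed.

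ADAM17, also named TACE, releases tumour necrosis factor and several ligands of the EGF receptor. It had 9.94, 11.34 and 12.31 TPM in NG, 0.26, 0.37 and 0.14 in si-FGF9, 1.04, 0.41 and 1.80 in HG, and 1.42, 1.30 and 1.37 in HG+OE-FGF9. Every si-FGF9 library was under 0.41, the lowest of HG, and NG was apart from all others. ADAM17 fell in HG (-2.60 ± 0.23, adjusted p = 5.88e-05) and in si-FGF9 (-3.28 ± 0.23, adjusted p = 2.90e-06). In linear TPM the means were 10.3-fold and 43.6-fold lower than in NG. HG+OE-FGF9 and HG differed by 0.24 with a 95% interval of -0.26 to 0.73, and this sign turned without HG replicate 2. The protein-coding gene IAH1 overlaps ADAM17 on the other strand.

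**Figure D2:**
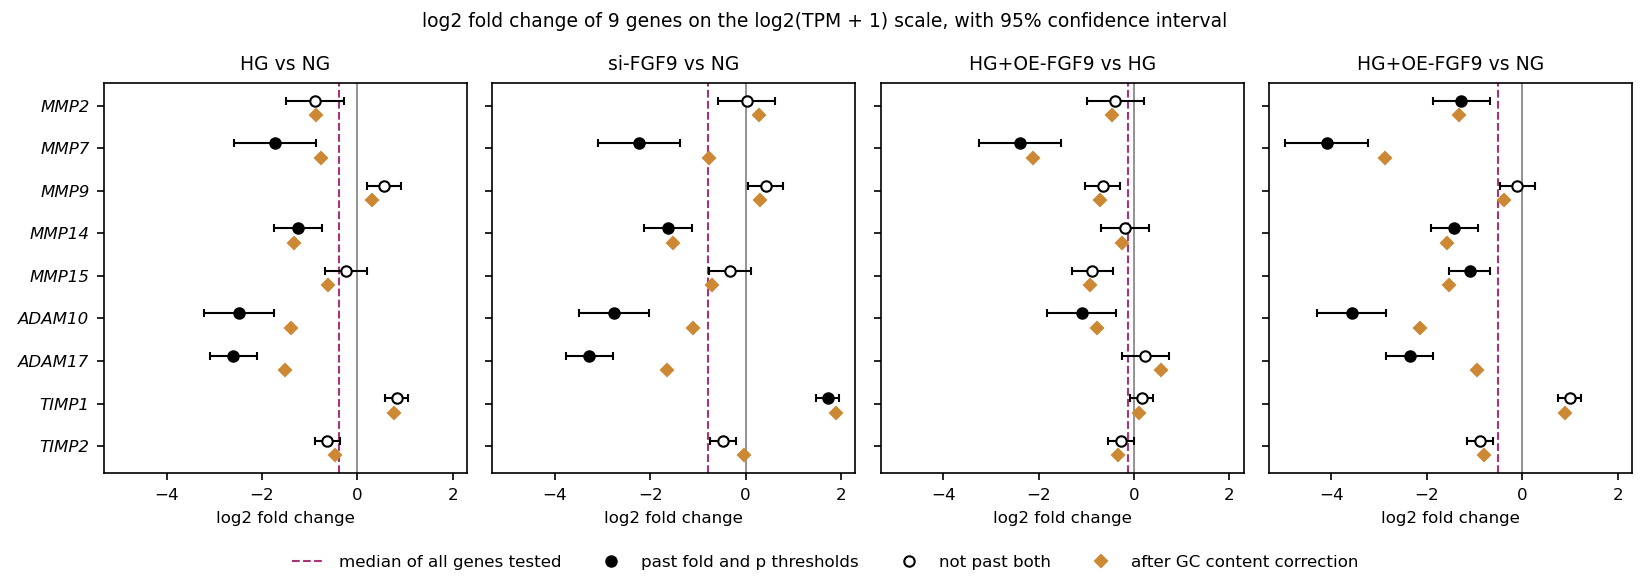
The log2 fold change of the 9 genes tested is plotted for the 4 comparisons as circles with 95% confidence intervals, filled where the fold and p thresholds were passed, and diamonds give the value after a correction for GC content. ADAM10, ADAM17 and MMP7 lie left of the dashed median of all genes in HG and si-FGF9 and move towards 0 with the correction, and TIMP1 lies to the right in both.

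TIMP1 was the most abundant of the 10 genes in every library. It had 566.94, 576.28 and 594.11 TPM in NG, 1905.25, 1836.37 and 1984.45 in si-FGF9, 931.64, 1079.39 and 1082.05 in HG, and 1232.37, 1227.12 and 1016.57 in HG+OE-FGF9. NG was lowest and si-FGF9 highest with no overlap, while HG and HG+OE-FGF9 overlapped. TIMP1 rose in si-FGF9 (1.72 ± 0.11, adjusted p = 2.22e-06), to a mean TPM 3.30-fold that of NG. In HG it was higher than in NG by 0.83 ± 0.11 (adjusted p = 0.000612), under the fold threshold, and by 1.34 under median-of-ratios scaling, past it. HG+OE-FGF9 and HG differed by 0.17, with a 95% interval of -0.07 to 0.40. TIMP1 lies inside SYN1 on the other strand.

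TIMP2 had 152.72, 149.19 and 149.67 TPM in NG, 108.04, 110.71 and 105.10 in si-FGF9, 95.85, 85.57 and 112.09 in HG, and 77.47, 77.05 and 88.32 in HG+OE-FGF9. NG lay above all other libraries, and HG overlapped with both si-FGF9 and HG+OE-FGF9. Its log2 values against NG were -0.63 ± 0.12 in HG (adjusted p = 0.00231) and -0.48 ± 0.12 in si-FGF9 (adjusted p = 0.00448), neither of them past the fold threshold. The first was -0.23 from the median of all genes and the second 0.32 above it, and median-of-ratios scaling turned the sign in si-FGF9 (0.55). TIMP3, an inhibitor bound to the matrix, was listed at 0.04 TPM in 1 NG library and at 0 or 0.01 in the other 11.

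Of the 9 genes tested, 6 had every HG library below every NG library and 2 had every HG library above, where 46.5% and 10.7% of all genes did. For si-FGF9 compared with NG these numbers were 5 and 2, against 62.1% and 14.3%. Against HG, 5 genes lay wholly lower in HG+OE-FGF9 (MMP2, MMP7, MMP9, MMP15 and ADAM10) and 0 higher, where 9.95% and 12.2% of all genes did. The libraries of a group were not alike for these genes. Of the HG libraries, replicate 3 had the highest value of MMP2, MMP14, MMP15, ADAM10, ADAM17, TIMP1 and TIMP2 but the lowest of MMP7 and MMP9.

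The summed TPM of the 5 MMP genes was 342.19, 350.79 and 340.62 in NG, 103.51, 113.67 and 105.87 in si-FGF9, 161.52, 119.71 and 152.53 in HG, and 69.01, 69.87 and 113.66 in HG+OE-FGF9. MMP7 and MMP14 made up most of it in NG. The summed TPM of the 3 TIMP genes went the other way, with 730 ± 12.6 (SD, n = 3) in NG, 2017 ± 71.3 in si-FGF9, 1129 ± 89.0 in HG and 1240 ± 117 in HG+OE-FGF9. TIMP1 held 79.4% of this sum in NG and 94.7% in si-FGF9. ADAM10 and ADAM17 together had 110 ± 5.27 TPM in NG and 14.6 ± 5.16 in si-FGF9, 18.9 ± 8.90 in HG and 8.95 ± 2.79 in HG+OE-FGF9. These sums are a description and were not tested.

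The ratio of an enzyme to its inhibitor within a library cancels the scaling of that library, apart from the 1 added to each TPM, which weighs on low genes such as MMP9. It does not cancel the trend with GC content described below, which for MMP7 to TIMP1 leaves differences of -1.55 in HG and -2.66 in si-FGF9 from NG, and -2.23 between HG+OE-FGF9 and HG, once removed. The log2 ratio of MMP7 to TIMP1, each as TPM + 1, was -1.72, -2.05 and -2.14 in NG, -5.81, -5.69 and -6.27 in si-FGF9, -3.55, -4.60 and -5.41 in HG, and -7.67, -7.47 and -6.07 in HG+OE-FGF9. HG lay 2.55 below NG on average, si-FGF9 3.95 below NG, and HG+OE-FGF9 2.55 below HG, with no overlap in any of these pairs. Each had an exact two-sided permutation p of 0.1, the smallest that 3 against 3 can give, so the design cannot reach 0.05 (0.133 after adjustment over 12 tests). The ratio of MMP14 to TIMP2 was -0.03, 0.30 and 0.25 in NG and -1.04, -0.97 and -0.92 in si-FGF9, a difference of -1.15 with no overlap (exact permutation p = 0.1). In HG its mean was -0.43, lower than NG by 0.61 (exact permutation p = 0.1), and in HG+OE-FGF9 -0.36 (exact permutation p = 0.5 against HG). The ratio of MMP9 to TIMP1 was lower in si-FGF9 than in NG by 1.30 and in HG+OE-FGF9 than in HG by 0.82 (exact permutation p = 0.1 for each), while HG and NG overlapped (-0.27, p = 0.2). MMP9 itself had a higher TPM in si-FGF9 than in NG. Since TIMP3 was near 0, the ratio of ADAM17 to TIMP3 follows ADAM17 alone, with means of 3.58 in NG, 0.32 in si-FGF9, 1.00 in HG and 1.23 in HG+OE-FGF9.

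**Figure D3:**
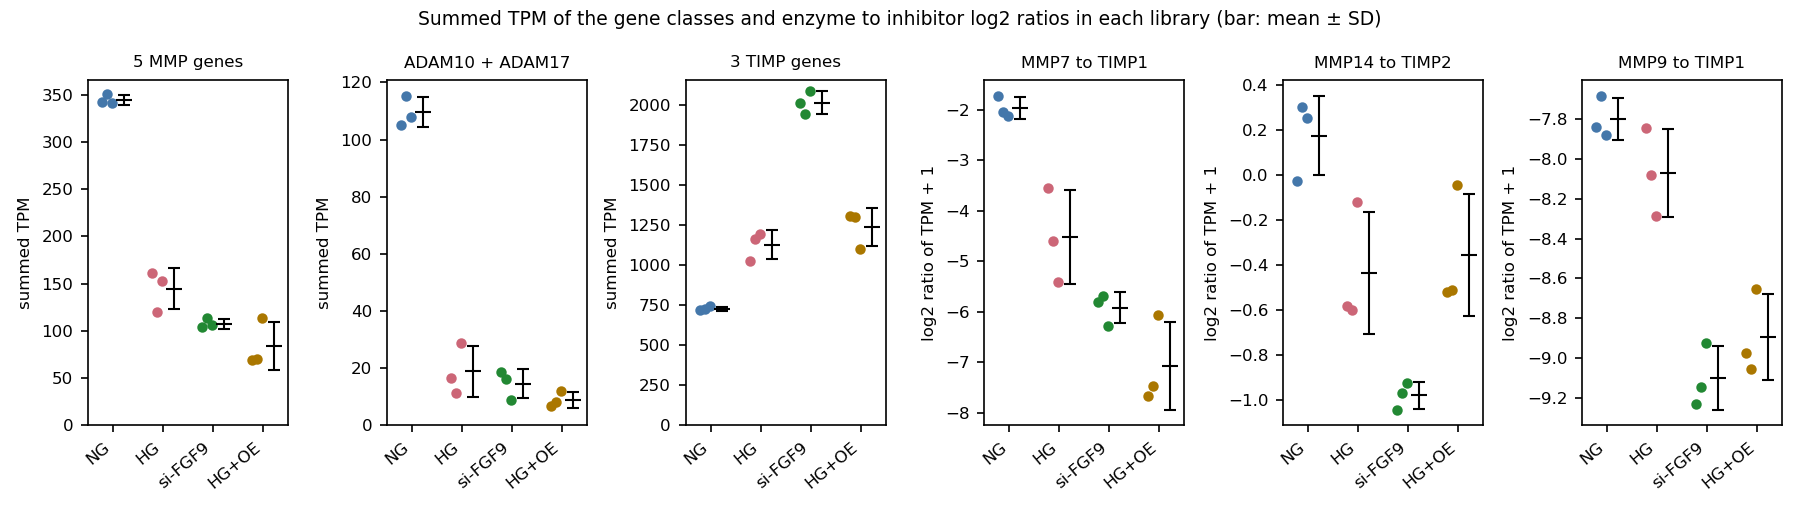
The first 3 panels plot the summed TPM of the MMP, ADAM and TIMP genes in each library from 0, and the other 3 the log2 ratio of an enzyme to its inhibitor, with the mean and SD as bars and ratio axes that do not start at 0. MMP and ADAM sums are highest and the TIMP sum lowest in NG, and the MMP7 to TIMP1 ratio runs from -1.72 in NG to -7.67 in HG+OE-FGF9.

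The GC content of the longest transcript set these genes apart. ADAM10 (38.3%), ADAM17 (38.5%) and MMP7 (41.3%) were below the median of 48.3% of genes tested, whereas TIMP2 (53.7%), MMP2 (56.5%), TIMP1 (57.9%), MMP14 (58.9%), MMP9 (62.4%) and MMP15 (66.0%) were above it. Across all genes the log2 fold change followed GC content. In HG compared with NG its median was -1.19 over the 2290 genes below 40% and 0.27 over the 1969 genes of 60% or more, and in si-FGF9 compared with NG -1.76 and 0.16. Between HG+OE-FGF9 and HG it was -0.36 and 0.04. 

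After a correction that removes this trend from each library, ADAM10 and ADAM17 still fell in HG (-1.38 and -1.51) and likewise in si-FGF9 (-1.11 and -1.64), where ADAM17 was near 0 TPM. The correction also moves genes listed at 0: FGF9, at 0 TPM in NG, HG and si-FGF9, came out 1.09 higher in HG and 1.63 higher in si-FGF9 than in NG, so corrected values near 0 TPM are uncertain. MMP7 no longer passed in either (-0.77 in both), but still fell in HG+OE-FGF9 compared with HG (-2.12, limma, adjusted p = 0.00606). MMP14 fell in HG (-1.33) and si-FGF9 (-1.52) with values close to those without the correction, and TIMP1 rose in si-FGF9 (1.89). ADAM17 in HG+OE-FGF9 compared with NG (-0.94) and ADAM10 in HG+OE-FGF9 compared with HG (-0.77) were lost as calls, and 11.8% of all genes fell in the first of these comparisons. With the correction 3.06% of all genes fell in HG compared with NG, 12% in si-FGF9 compared with NG and 2.18% in HG+OE-FGF9 compared with HG. Of the 9 genes these were 3, 3 and 1. The genes that rose with the correction in si-FGF9 compared with NG were 12.3% of all, and 1 of the 9.

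**Figure D4:**
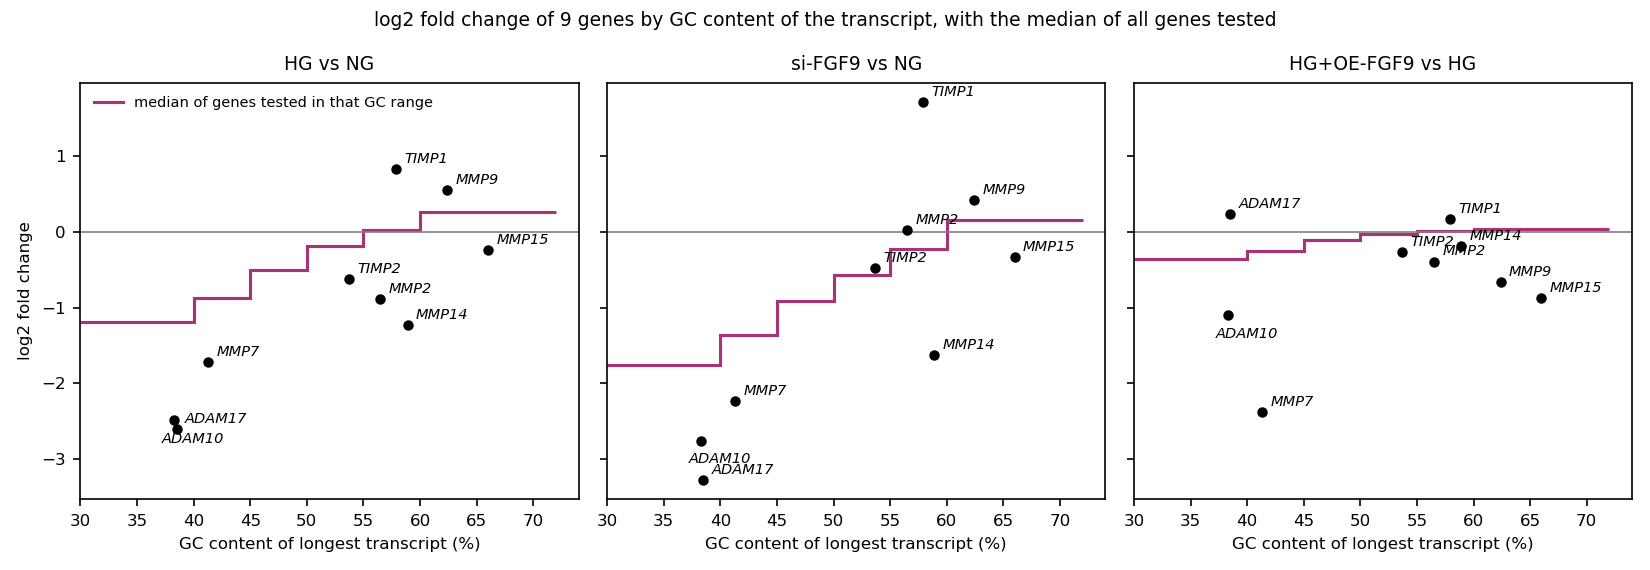
The log2 fold change of each of the 9 genes is plotted against the GC content of its longest transcript, and the stepped line gives the median of all genes tested in each GC range. MMP14 lies well below the line and TIMP1 above it in HG and si-FGF9, and MMP7 is far below it in HG+OE-FGF9 compared with HG, where the line is nearly flat.

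Other genes of protease activation, inhibition and shedding were taken from lists of 92 genes, of which 58 were tested. In HG compared with NG 13 fell and 0 rose, in si-FGF9 compared with NG 26 fell and 0 rose, and in HG+OE-FGF9 compared with HG 4 fell and 0 rose. Of all genes tested 22.7%, 42.2% and 2.67% fell in these comparisons, so the counts against NG are near the shares of all genes. The split depended on scaling. For si-FGF9 compared with NG it was 11 lower and 9 higher with median-of-ratios scaling, and 13 lower and 7 higher after quantile normalization. For HG compared with NG it was 6 lower and 1 higher with the first and 8 lower and 1 higher with the second. The 4 genes called for HG+OE-FGF9 against HG were MMP24, ADAMTS10, L1CAM and HAVCR1, of which HAVCR1 is named after its values were seen. The median log2 fold changes of the listed genes were, in the same order, -0.49, -0.93 and -0.29, beside -0.39, -0.79 and -0.13 over all genes. The genes named below are the most abundant of each list. With the GC correction 5 fell and 1 rose in HG, and 14 fell and 3 rose in si-FGF9. Of all genes 3.06% then fell in HG and 12% in si-FGF9. Those that rose were 536 of 14191 in HG and 12.3% in si-FGF9.

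Of 18 other MMP genes 6 were tested, 0 fell in HG and 1 fell in si-FGF9, where 22.7% and 42.2% of all genes did. MMP24, a membrane-type enzyme, had 13.90, 19.26 and 17.16 TPM in NG, 1.47, 1.99 and 1.72 in si-FGF9, 11.93, 11.16 and 6.02 in HG, and 3.21, 2.69 and 4.42 in HG+OE-FGF9. It fell in si-FGF9 (-2.70 ± 0.25, adjusted p = 8.03e-06) and in HG+OE-FGF9 compared with HG (-1.24 ± 0.25, adjusted p = 0.011). MMP1, the interstitial collagenase, had 4.71 to 6.05 TPM in NG and 1.07 to 2.01 in HG+OE-FGF9, with -0.92 ± 0.20 against HG, just under the fold threshold. 

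Of 10 other ADAM genes 4 were tested. ADAM9 fell from 24.47, 16.39 and 15.81 TPM in NG to 2.50, 1.11 and 5.40 in HG (-2.43 ± 0.41, adjusted p = 0.00125) and 2.39, 2.89 and 0.61 in si-FGF9 (-2.82 ± 0.41, adjusted p = 7.26e-05). ADAM15, the most abundant of this list, lay above NG in HG and si-FGF9 without passing the fold threshold (0.35 and 0.61). Of 8 ADAMTS genes tested, secreted proteases of which some cut proteoglycans, 2 fell in HG and 5 in si-FGF9, where 22.7% and 42.2% of all genes did. With the GC correction 1 and 2 of the 8 fell, where 3.06% and 12% of all genes did. ADAMTS1 went from 114.22, 86.83 and 83.35 TPM in NG to 30.50, 18.41 and 51.00 in HG (-1.58 ± 0.28, adjusted p = 0.00156) and 21.87, 22.60 and 18.93 in si-FGF9 (-2.10 ± 0.28, adjusted p = 4.78e-05).

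Of the genes that activate MMPs or belong to the urokinase system, 8 of 10 were tested, 1 fell in HG and 2 fell in si-FGF9. The shares of all genes that fell were 22.7% and 42.2%. PLAU encodes urokinase, which makes plasmin, an activator of MMP precursors. It had 421.60, 411.21 and 417.23 TPM in NG, 152.12, 174.44 and 177.59 in si-FGF9 (-1.31 ± 0.31, adjusted p = 0.00251) and 160.22, 135.68 and 321.94 in HG (-1.12 ± 0.31, adjusted p = 0.0116). Both calls of PLAU were lost with the GC correction (-0.88 and -0.98). BSG, which induces MMPs in neighbouring cells, was higher in HG and si-FGF9 by 0.44 and 0.68, under the fold threshold. The MMP inhibitors RECK and TFPI2 had log2 values against NG of -0.07 and -0.04 in the si-FGF9 libraries and of -0.53 and -0.03 in HG, none of which passed, although with the GC correction TFPI2 rose in both (1.02 and 1.54) and RECK in si-FGF9 (1.06). TIMP4 and A2M did not exceed 0.13 TPM.

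Both sheddases depend on partners for their transport and maturation. The 6 tetraspanins that carry ADAM10 to the surface were all tested, 0 fell in HG and 1, TSPAN14, fell in si-FGF9 (-1.51 ± 0.19, adjusted p = 2.99e-05), which was lost with the GC correction (-0.89). TSPAN15 had -0.51 in HG and -0.93 in si-FGF9, and TSPAN33 0.24 and 0.57. Of the 3 genes of the iRhom complex that matures ADAM17, RHBDF2 fell in si-FGF9 (-1.25 ± 0.20, adjusted p = 0.000158), whereas RHBDF1 (0.22) and FRMD8 (0.26) did not pass. In HG 0 of the 3 passed. Beside these counts and those of the tetraspanins, 22.7% of all genes fell in HG and 42.2% in si-FGF9.

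Of 23 proteins known to be shed, 22 genes were tested, of which 14 fell in si-FGF9, 9 in HG and 2, L1CAM and HAVCR1, in HG+OE-FGF9 compared with HG. The shares of all genes that fell were 42.2%, 22.7% and 2.67% in that order. L1CAM, a cell adhesion protein, had 176.70, 191.52 and 189.99 TPM in NG, 28.89, 33.01 and 33.23 in si-FGF9, 123.93, 91.95 and 136.74 in HG, and 32.97, 33.57 and 76.50 in HG+OE-FGF9. It fell in si-FGF9 (-2.52 ± 0.27, adjusted p = 1.39e-05) and in HG+OE-FGF9 compared with HG (-1.38 ± 0.27, adjusted p = 0.00975). SDC4, a heparan sulphate proteoglycan, fell in si-FGF9 (-1.05 ± 0.14, adjusted p = 4.12e-05), and this was lost with the GC correction (-0.33). CD44, which anchors MMPs to the surface, had a log2 value of -0.05 in si-FGF9 and -0.44 in HG, and AXL -0.88 and -0.27, none past both thresholds. Fewer of these genes fell with the GC correction, 3 in HG and 8 in si-FGF9, where 3.06% and 12% of all genes did.

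**Figure D5:**
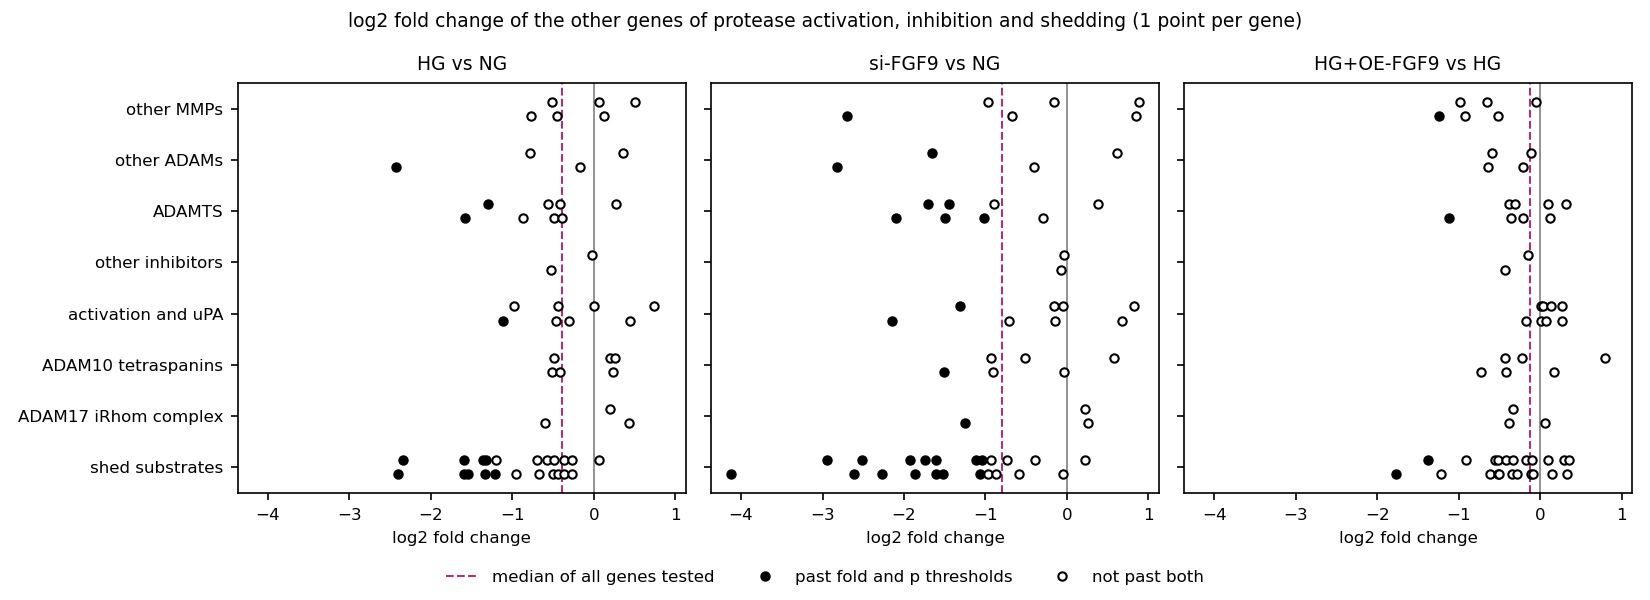
Each point is the log2 fold change of 1 gene of the lists named on the vertical axis, filled where it passed the fold and p thresholds, with the median of all genes tested as a dashed line. In HG and si-FGF9 the filled points lie left of 0, most of them among the shed substrates and ADAMTS genes, and 4 distinct genes are filled in HG+OE-FGF9 compared with HG.

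The patterns most like each gene were looked for over the 12 libraries by Pearson's r of log2(TPM + 1), as a description of libraries that share groups. For MMP7 they were THBS1, KDM2B and MMP1 (r = 0.99 for each). For ADAM17 they were GTF2I, AKAP12 and IL6R (0.99 for each), of which IL6R encodes a receptor that ADAM17 sheds. For ADAM10 they were CEP85L, PRRC2C and SLC25A36 (0.99) and for MMP14 CCNG2, RELCH and SLC9A3 (0.99). TIMP1 was most like the ribosomal protein genes RPLP1, RPLP2 and RPS21 (0.99). For TIMP2 they were MDGA2, GOSR1 and TM4SF1 (0.98 to 0.99) and for MMP15 LRP1, FKBP10 and COL6A2 (0.95 to 0.96). MMP9 had C1QL1, SLC29A4 and S100A10 (0.93 to 0.95), and MMP2 had MAPT, SDS and MIATNB (0.89 to 0.91). How high such values run for other genes was not measured. Among the genes themselves ADAM10 and TIMP2 (0.95) and MMP14 and ADAM17 (0.94) were most alike, and ADAM17 and TIMP1 most opposed (-0.92).

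Markers of other cell types were set beside these values because MMPs, ADAMs and TIMPs are also made by fibroblasts and leukocytes. Of 5 fibroblast markers, 3 had a mean TPM of at least 1 in NG and 2 in each other group, with summed levels of 62.3 to 89.2 TPM in NG, 11.6 to 21.0 in si-FGF9, 17.1 to 40.9 in HG and 11.5 to 22.4 in HG+OE-FGF9. LUM made up most of these sums, and COL3A1 and PDGFRB stayed at or below 0.07 and 0.41 TPM. Of 4 leukocyte markers the defining PTPRC was at or below 0.07 TPM, and CD68 made up most of a sum of 110 to 165 TPM. The 3 endothelial markers summed to at most 0.15 TPM. In bulk RNA, fewer cells of a type and less RNA per cell cannot be told apart. The part of the fibroblast markers in the differences from NG was not tested.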

How the data were processed

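RNA of HK2 cells was sequenced in 12 libraries, in 4 groups of 3 given by the sample labels. The authors deposited a table of values for 62703 Ensembl identifiers, which sum to 1000000 per library with 2 decimals and were read as TPM. No label names this unit, and depth is unknown. The quantification tool and annotation are not given in the sources used here. The submitters' processing notes name Bowtie 0.12.2 and mm8, a mouse build, whereas the identifiers are human.

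Symbols were matched for 62625 identifiers. The fit used limma 3.58.1 in R 4.3.3 with an empirical Bayes trend, a pseudocount of 1 and the group as the only term. It was tested on simulated data. GC content came from GENCODE release 29 (GRCh38), with values for 96.9% of genes tested. The correction subtracted a natural spline with 5 degrees of freedom per library. An overall shift of a library is thereby removed too. Ratios were compared with exact two-sided permutation tests.

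The 10 genes and the lists were chosen with earlier results of these data known. Every one of the 10 was named, the 4 most abundant genes of each list could be named, and the 3 with the highest r. A result for 1 listed gene is not reported here. Alternatives were no filter, a pseudocount of 0.1, the 6 libraries of a comparison, a replicate block, no variance trend, other scalings, the GC correction, adjusted p in place of p, and each library left out. Averaging near-identical libraries was added after seeing the data.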

Additional observations from a re-analysis of the deposited data

How the results depend on the processing

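Depth is not recorded in TPM, so the counting error of low values such as those of ADAM17 and MMP9 is unknown. Of 828 values of single genes under an alternative, 777 kept their direction and their side of the threshold, 27 lost a call, 11 gained one and 13 turned sign. The cause of these changes was not tested. With an adjusted p under 0.05 at any fold, 8 of the 9 genes differed between HG and NG in place of 4. In HG+OE-FGF9 compared with HG, 1 gene, MMP7, was called in place of 2 with no filter, with the 6 libraries alone, with median-of-ratios scaling, quantile normalization, the GC correction, an adjusted p with the fold change, and either way of averaging near-identical libraries. With each library left out in turn, the genes called numbered 4 to 5 in HG, 5 to 5 in si-FGF9, 1 to 3 in HG+OE-FGF9 compared with HG and 6 to 7 in HG+OE-FGF9 compared with NG. For HG+OE-FGF9 against HG it was 1 without HG replicate 1 or 3 or HG+OE-FGF9 replicate 1 or 2. Over all genes tested, 391 fell and 430 rose in that comparison with every library kept. Without these libraries, in the same order, the numbers were 257 and 403, 456 and 535, 211 and 238, and 210 and 225. The listed genes called went from 13 in HG to 7 with median-of-ratios scaling and 6 with the GC correction, and from 26 in si-FGF9 to 17 with the GC correction. Left-out libraries gave 10 to 15, 25 to 28, 4 to 9 and 20 to 27 in the 4 comparisons. The listed count of 4 in HG+OE-FGF9 compared with HG became 7 when HG replicate 2 was left out and 9 when HG+OE-FGF9 replicate 3 was. Calls over all genes rose as well, to 929 lower and 430 higher of 14564 and to 1027 lower and 471 higher of 14433.

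Signs turned for MMP9 in HG+OE-FGF9 compared with NG (0.27 and 0.34 with median-of-ratios scaling and quantile normalization), for MMP15 in HG (0.25 and 0.26) and si-FGF9 (0.64 and 0.54), and for TIMP2 in si-FGF9 (0.55, median-of-ratios). With libraries left out, MMP2 in si-FGF9 ran from -0.16 to 0.31. For HG+OE-FGF9 against HG, MMP14 ran from -0.41 to 0.0703, ADAM17 from -0.0165 to 0.48, the MMP14 to TIMP2 ratio from -0.0795 to 0.23 and the ADAM17 to TIMP3 ratio from -0.0189 to 0.48. None of these values was called in the report. The GC-corrected ADAM17 to TIMP3 ratio could not be given, since TIMP3 was not tested.

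Replicate numbers are shared between groups, but same-numbered libraries correlated from -0.44 to 0.25 in their deviations and only 3 of 18 pairs exceeded 0.1, so the numbers were not taken as a pairing. With the replicate number as a block, the genes called were 4, 5, 1 and 6 in place of 4, 5, 2 and 6, and the block with the GC correction gave 6 and 17 listed genes in HG and si-FGF9 and 1 gene in HG+OE-FGF9 compared with HG.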
